A study of Mus musculus with 19 samples.

Results

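The comparison is between sciatic nerve cells of mouse embryos at embryonic day 18 (E18) and at E14, with 3 microarrays at each age. These 6 arrays were chosen by their stage labels from a series of 19, whose other arrays are of trunk tissue (E9.5) and of nerves at E12, E16 and P0, the day of birth. All the embryos, at both ages, carried green fluorescent protein under a glial promoter, and only green cells, sorted by flow cytometry, were used. The labels call the cells of both ages Schwann cells, and name those of E12 as their precursors. Strain, sex and the number of embryos behind an array are not given in the labels, and no label separates the arrays of an age by animal or litter. The p-values come from a fit of all 19 arrays and rest on the spread between arrays of a stage, pooled over all stages. With these labels that spread may be technical, and the p-values cover nothing beyond it. There is no group without the reporter, and what the sort collects depends on where the promoter is active.

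As background, the glia of a developing nerve pass from migrating precursors, which depend on axonal signals to survive, to immature Schwann cells, which make a basal lamina and enclose bundles of axons. From late embryonic life these cells sort single large axons out of the bundles, stop dividing and begin to make myelin, a membrane rich in cholesterol, under the transcription factor Egr2. Neuregulin acting on the receptor Erbb3 drives the lineage throughout.

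Each array gave 1 expression index, an intensity on a linear scale, for each of 12488 probe sets. The index is compared between arrays for 1 probe set and never between probe sets. Its median lay between 179 and 200 on the 6 arrays. Values under 68.5, the floor used here, were set to that value, and made up 23.1% to 27.2% of an array. The rank correlation between arrays was at least 0.934 within an age and lay between 0.912 and 0.941 across the ages. The ratio of the 3' to the 5' control probe set of Gapdh, a sign of RNA quality and of amplification, was 6.23, 5.10 and 5.45 at E14 and 4.83, 4.11 and 4.18 at E18, so the ages did not overlap. It moves with every difference below, and its part in them was not tested beyond a fit with the ratio as a covariate, which called 96 probe sets higher and 307 lower.

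The 6 arrays held RNA of the labelled lineage at both ages. The index of Erbb3 was 3429, 3781 and 3973 at E14 and 4283, 3727 and 3683 at E18, and that of Sox10, the transcription factor that specifies glia of the neural crest, was 943, 2328 and 1825 at E14 and 2125, 2230.3 and 1363 at E18. For the Schwann cell ligand Dhh it was 3057, 3176 and 2804 at E14 and 3506, 3342 and 3669.5 at E18. None of these differed beyond the spread (adjusted p of 0.996, 0.968 and 0.827). S100b, a marker of immature Schwann cells, was near the floor at both ages, at 31.5, 51.1 and 57.6 at E14 and 78.9, 70.6 and 23.8 at E18. Ngfr and Cdh19 were not analysed here.

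Of 10414 probe sets tested, 292 (2.8%) differed between E18 and E14 at an adjusted p under 0.05. Higher at E18 were 95 of them (0.912%) and lower 197 (1.89%), and at an unadjusted p under the same threshold 1186 differed. The rises carried 83 gene symbols and the falls 173. At least 4-fold rises numbered 28 and at least 4-fold falls 44. For all 292 the 3 arrays of one age lay wholly above those of the other, which was so for 20.2% of all probe sets tested. In 32 of the falls all 3 E18 arrays were at the floor, and in 8 of the rises all 3 E14 arrays were. The sorted cells were measured in bulk, so fewer cells of a type and less RNA per cell cannot be told apart. Of the 292, 38 are of the kind that ends in f, whose probes are shared within a gene family, as are 882 of those tested. The median change over all probe sets was -0.06 on the log2 scale. The share of rises among the calls was 32.5% as deposited, 48% after quantile normalization and 48.1% after scaling the arrays to 1 median, so the excess of falls depends on the scaling. The number of calls was between 173 (48 higher, 125 lower, without E14 replicate 1) and 222 (without E14 replicate 2) when 1 of the 6 arrays was left out, with 193 without E14 replicate 3 and 187, 183 and 182 without E18 replicates 1, 2 and 3.

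**Figure D1:**
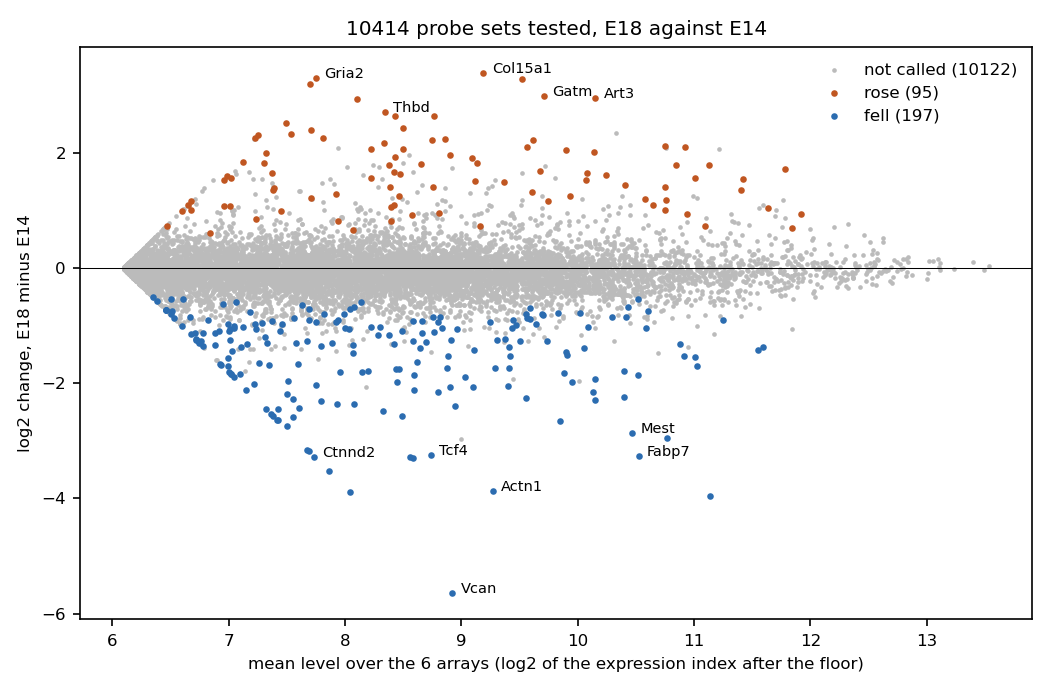
Fitted log2 change from E14 to E18 (vertical axis) against the mean level over the 6 arrays (horizontal axis, log2 of the expression index after the floor) for the 10414 probe sets tested. Orange points are the 95 that rose and blue points the 197 that fell; Vcan lies lowest among the named genes, at -5.64, and the straight left edges are values at the floor in one of the ages.

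Among the 15 largest rises was Col15a1, which encodes a collagen that sits between basement membrane and interstitial fibrils. Its index was 195, 238 and 127 at E14 and 2501, 1866 and 1443 at E18, a 10.5-fold rise (log2 change 3.39 ± 0.42, standard error, adjusted p = 0.000111). Every E18 array was thus several times the highest E14 array. S100a6, a small calcium-binding protein, read 279.8, 187 and 251 at E14 and 2343, 1970.3 and 2610.1 at E18 (log2 change 3.28 ± 0.38). Art3, a member of the ADP-ribosyltransferase family, read 401, 366 and 463 at E14 and 2602, 3529 and 3460.5 at E18, and its log2 change of 2.96 ± 0.29 had an adjusted p of 1.15e-05. Gatm, the enzyme of the first step of creatine synthesis, went from 248, 291 and 360.1 to 2848, 2744 and 1673. These genes were measurable at both ages, so their changes are not set by the floor.

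Other large rises started from the floor. Gria2, a subunit of AMPA glutamate receptors, was at the floor on all 3 E14 arrays and read 931, 621 and 529 at E18, a rise of at least 9.83-fold. Of the 4 probe sets of Gria2 on the array 2 were tested and this 1 was called. Anxa1, the membrane-binding protein annexin A1, had 2 of 3 probe sets called. One was at the floor on all 3 E14 arrays and at 524, 657 and 718 at E18 (at least 9.16-fold). The other was above the floor on 2 of the 3 E14 arrays, at 145, 97.7 and 55.7, and read 626, 828 and 844 at E18. Tmem45a and Efhd1 were also at the floor on all E14 arrays and read 389.8, 303 and 299 and 395, 332 and 302 at E18. Srgap2, a regulator of the small GTPase Rac downstream of Slit and Robo, had 85.3, 45.9 and 95.7 at E14 and 416, 353 and 489 at E18. Emp2, a tetraspan protein of the Pmp22 family, had 48.1, 76.5 and 146 at E14 and 520.1, 452 and 467 at E18. Cavin1, a coat protein of caveolae, had 66.1, 77.6 and 79.5 at E14 and 525, 424 and 358 at E18, but its other probe set changed by -0.05. Each of these 3 had 1 E14 array at the floor, so their rises of at least 5.05-fold, at least 5.24-fold and at least 5.73-fold are lower bounds.

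The remaining large rises were in Thbd, Tnfrsf21, Plekha1 and Cxcl10. Thbd, the thrombin receptor thrombomodulin, read 157, 102 and 126 at E14 and 821, 834 and 838 at E18, with E18 arrays nearly equal to each other. Tnfrsf21, death receptor 6, read 122, 164 and 189 at E14 and 1004, 938 and 628 at E18. Plekha1, a phosphoinositide-binding adaptor, read 219, 120.3 and 101 at E14 and 753, 796 and 1059 at E18. Cxcl10, a chemokine induced by interferon, was 349, 149 and 102 at E14 and 925, 755 and 1829 at E18, the widest spread of these genes in both ages. Its adjusted p was 0.0483, became 0.08 with the lot number as a block and was 0.081 to 0.21 without E14 replicate 2 or 3 or any E18 array. For Efhd1 the adjusted p of 0.0238 was 0.064 to 0.093 without any 1 of the 6 arrays. The probe sets of Anxa1, Thbd and Plekha1 are of the shared-probe kind, so other family members could add to their signal.

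Among the 15 largest falls was Vcan, which encodes versican, a large chondroitin sulfate proteoglycan of embryonic matrix. Its index was 3409, 3008 and 3924 at E14 and at or below the floor on all 3 E18 arrays, with 11.8, 32.8 and 0 as listed. The fall was at least 50-fold (log2 change -5.64 ± 0.36, adjusted p = 4.71e-08), the largest among genes with 1 symbol. Fabp7, a brain-type fatty acid-binding protein made by early glia, read 4718, 4245 and 4752 at E14 and 422, 577 and 439 at E18, and its 9.62-fold fall had no array near the floor. Crabp1 and Crabp2 bind retinoic acid in the cytoplasm. Crabp1 read 2152, 2100.4 and 2734 at E14 and 309, 315 and 511 at E18, and Crabp2 read 466, 369.7 and 445 at E14 and was at the floor on all 3 E18 arrays.

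Transcription factors among the largest falls were Dlx2, Tcf4 and Mef2c. Dlx2, a homeobox factor of neural crest and forebrain, had 1067, 1274 and 1196 at E14 and 141, 181 and 44.8 at E18. Tcf4, a basic helix-loop-helix E protein, had 1471, 1162 and 1331 at E14 and 161, 156 and 107 at E18. Mef2c, a MADS-box factor, had 440.2, 390.0 and 566 at E14 and 81.5, 81.3 and 29.5 at E18, and 2 of its 4 probe sets were called. In each case the lowest E14 array was more than 4 times the highest E18 array.

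Mest, an imprinted gene expressed from the paternal allele in growing embryonic tissue, read 3497, 3732 and 4296 at E14 and 627, 639 and 360.1 at E18. Ctnnd2, the adhesion protein delta-catenin, read 706, 531 and 777 at E14 and was at the floor on all E18 arrays, as were Dkk2, Cadps and Lsr. Dkk2, a secreted modulator of Wnt signalling, had read 707, 541 and 596 at E14. Cadps, a factor for the release of dense-core vesicles, had read 689, 533 and 648, and Lsr, a lipoprotein receptor that is also part of epithelial junctions, 488, 389 and 414. Actn1, an actin crosslinker, read 2857, 2050.3 and 2246 at E14 and 237, 204 and 87.4 at E18. Its adjusted p of 0.0195 was 0.052 to 0.1 without any E14 array or E18 replicate 2 or 3. The E16 arrays of this probe set differed among themselves, at 2183, 1459.7, 406 and 450.3, and enter its error through the shared fit. The probe sets of Actn1, Cadps and Lsr are of the shared-probe kind, and the other tested probe set of Lsr was not called.

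Laptm5 and Hbb-y belong to blood cells. Laptm5, a lysosomal protein of leukocytes, read 758, 368 and 367 at E14 and 51.0, 72.5 and 53.2 at E18. Hbb-y, an embryonic globin, read 3185, 975 and 563 at E14 and 115, 147 and 107 at E18. In both, replicate 1 was the highest E14 array. Each has a second probe set that was not called (log2 changes of -0.46 and -0.17), and both called probe sets are of the shared-probe kind. The summed index of 20 leukocyte markers was 3388 to 4769.5 at E14 and 2718 to 3244 at E18, with Cybb, Fcer1g and Lyz2 at the floor on all 6 arrays. That of 11 erythroid markers was 3627 to 7285 at E14 and 3614 to 4352 at E18. Laptm5 and Hbb-y are themselves among these markers, so the sums are not separate from them. Gene by gene, the median log2 change was -0.34 over 17 leukocyte genes tested (2 higher, 15 lower). Over 11 erythroid genes it was -0.03 (4 higher, 7 lower). The part of such cells in these falls was not tested.

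**Figure D2:**
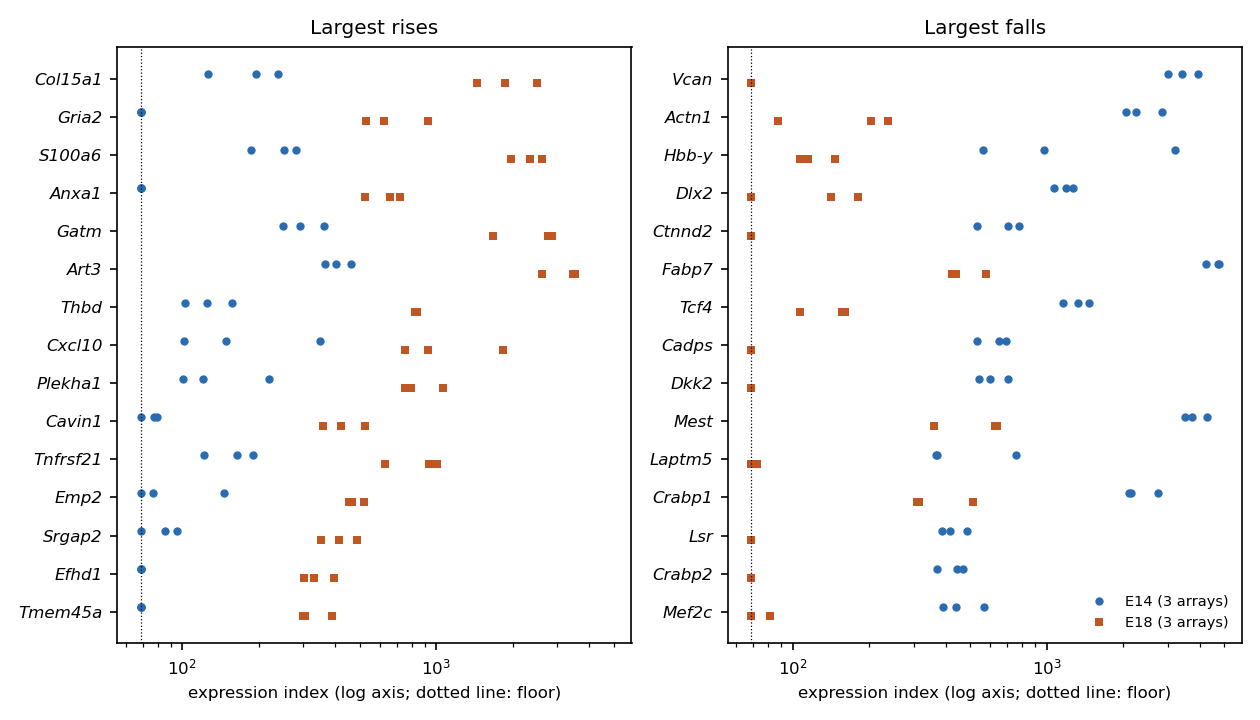
Expression index of each array (log axis, values under the floor drawn at the floor, dotted line) for the 15 largest rises (left) and the 15 largest falls (right), with blue circles for the 3 E14 arrays and orange squares for the 3 E18 arrays. The ages do not overlap in any of the 30 genes because the choice of genes required it. Among the rises Thbd has the tightest E18 arrays, while Cxcl10 and Hbb-y are among the widest at E14.

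Gene lists were then read through the same fit, with 1 probe set per gene. On that basis 3.08% of 7414 genes were called, 1.03% higher and 2.05% lower, and the median change was -0.07 on the log2 scale. At an unadjusted p under 0.05 in limma, 897 of the 7414 differed, 296 higher and 601 lower. Myelin genes rose in part. Of 11 tested, 3 rose and 0 fell, and the median change was 0.53 (0.64, 0.54 and 0.64 within lots 1, 2 and 3, the lot batches in the labels). Mbp, myelin basic protein, read 907, 1134 and 789 at E14 and 4382, 3672 and 4033 at E18 (log2 change 2.11 ± 0.25, adjusted p = 6.12e-05). The second probe set of Mbp had a log2 change of exactly 0, as floored values give when both ages are at the floor. It therefore does not bear on the rise. Mal, a raft protein of myelin, read 507, 891 and 733 at E14 and 2300.4, 1917 and 2195 at E18, and Pmp22, a tetraspan myelin protein, 1741, 2703 and 2319 at E14 and 5198, 5044 and 3649 at E18. The adjusted p of Mal, 0.0309, was 0.075 to 0.17 without E14 replicate 1 or 3 or any E18 array. That of Pmp22, 0.036, was 0.085 to 0.21 without E14 replicate 1 or 3 or E18 replicate 1 or 2, and 0.065 with the lot as a block on the 6 arrays alone. Cryab, a small heat-shock protein of myelinating cells, had 433, 559 and 589 at E14 and 1317, 1544 and 1795 at E18 without overlap and an adjusted p of 0.0661. Mag, the adhesion protein of the inner myelin wrap, read 224, 322 and 259 at E14 and 356, 310.5 and 372 at E18, and Cnp and Gjb1 stayed close to the floor.

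Among 12 transcription factors that promote myelination 0 rose and 1 fell, with a median of 0.23. Egr2, the main activator of myelin genes, was 2074, 1501 and 2963 at E14 and 4213, 5061 and 3797 at E18. The E18 arrays were all above the E14 arrays, but the log2 change of 1.04 ± 0.38 did not pass (adjusted p = 0.214, 95% interval 0.23 to 1.86). Pou3f1, which acts before Egr2, read 51.6, 182 and 136 at E14 and 589.6, 651 and 338 at E18, also without overlap, with an adjusted p of 0.085. Nab1, a partner and corepressor of Egr proteins, fell from 1636, 1632 and 1501 to 636, 599.8 and 502 (log2 change -1.46 ± 0.16, adjusted p = 3.12e-05). Of 10 genes that hold myelination back none was called by limma, and 1 had an unadjusted p under 0.05. Jun read 2140.1, 2941 and 3362 at E14 and 4414, 4411 and 3274 at E18 and Sox2 3383, 2933 and 4593 at E14 and 3586, 4425 and 4543 at E18, overlapping in both cases.

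Genes of Schwann cell precursors divided into a few that fell steeply and others that did not pass. Of 17 tested, 4 fell and 0 rose, and the median was -0.10 (0.17, -0.42 and -0.42 within lots). The falls were in Fabp7, Gap43, Gfra3 and Itga4. Gfra3, a receptor for artemin, read 2684, 2219 and 2639.9 at E14 and 381, 471 and 750.3 at E18 (log2 change -2.29 ± 0.22). Gap43, a growth-associated membrane protein, read 344, 395 and 482 at E14 and 75.0, 64.1 and 77.5 at E18. Itga4, the alpha-4 integrin of migrating crest cells, read 230.1, 215 and 282 at E14 and was at the floor on all E18 arrays, and both tested probe sets fell. Cdh2, N-cadherin, read 1050.1, 1442 and 1349 at E14 and 748, 563 and 408 at E18 without overlap, with an adjusted p of 0.154. Sox10, Sox2, Dhh, Ednrb and Erbb3 were in the same list and were not called.

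Of 15 genes typical of immature Schwann cells 1 rose and 0 fell, with 13 of the 15 higher at E18 and a median of 0.36. The rise was in Cd59a, an inhibitor of complement, with 281, 215 and 214 at E14 and 536, 408 and 576 at E18, and its adjusted p of 0.0159 was 0.066 to 0.088 without E14 replicate 2 or 3 or E18 replicate 1 or 3. Egr1, an early-response transcription factor of the list, read 2776, 5098 and 4376 at E14 and 7029.5, 6513 and 3263 at E18, with wide spread at both ages.

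**Figure D3:**
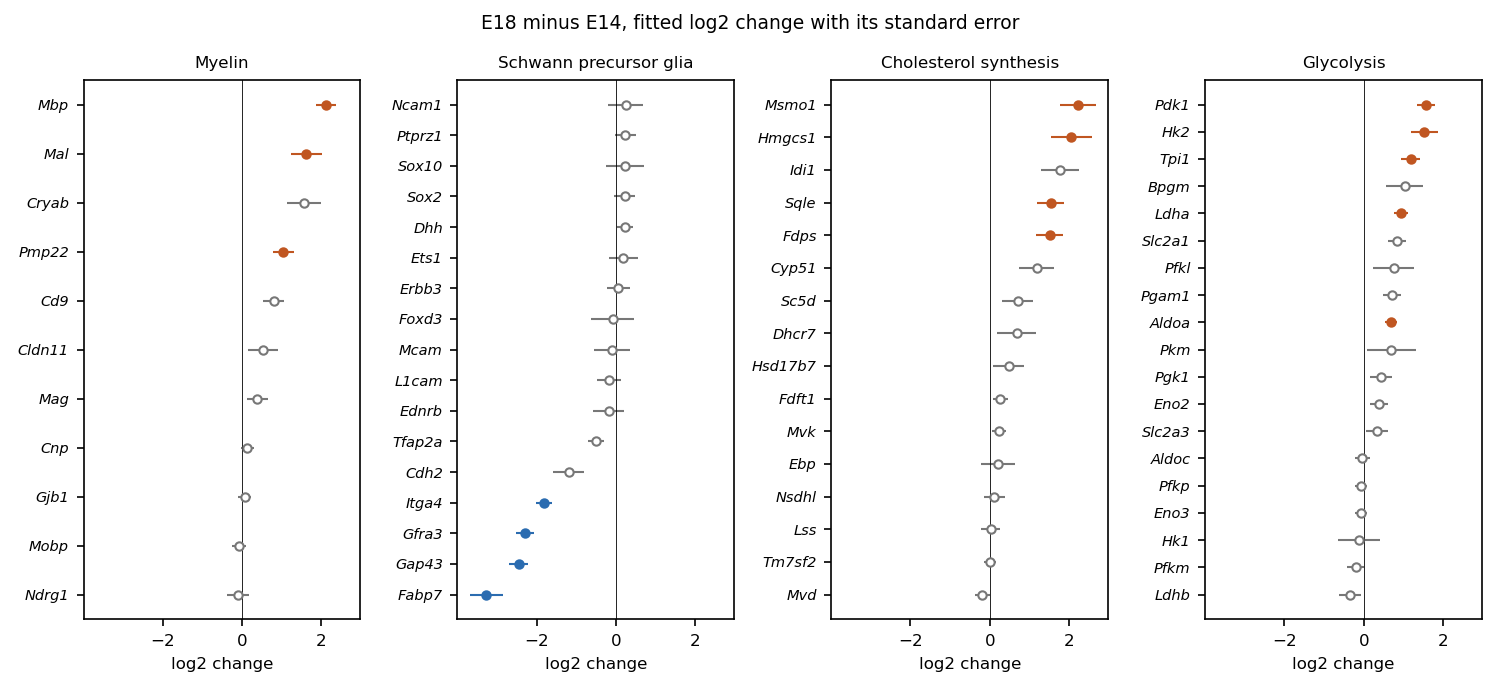
Fitted log2 change from E14 to E18 with its standard error for every tested member of 4 gene lists: myelin, Schwann precursor glia, cholesterol synthesis and uptake, and glycolysis. Filled orange points rose, filled blue points fell and open points were not called; 4 precursor genes (Itga4, Gfra3, Gap43 and Fabp7) stand apart on the left, and the called members of the other 3 lists are all on the right.

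Ligands, receptors and modulators of signalling changed gene by gene. In the Wnt list 1 of 28 rose and 3 fell (median -0.08). After Dkk2, the receptor Fzd3 fell from 1994, 1695 and 2218 to 508, 469 and 517, a 3.93-fold fall. Sfrp1, a secreted antagonist, fell from 879, 1203 and 1469 to 449.7, 500.1 and 292, and its adjusted p of 0.0309 was 0.053 to 0.16 without E14 replicate 2 or 3 or any E18 array. Wnt6, a ligand, rose from 74.9, 94.2 and 84.1 to 271, 244 and 394 (log2 change 1.82 ± 0.30). In the list of TGF-beta, BMP and Id genes 1 of 33 rose and 2 fell. Id3, an inhibitor of basic helix-loop-helix factors and a target of BMP signals, went from 505, 649 and 702 to 102, 134 and 124 (log2 change -2.36 ± 0.20, adjusted p = 2.45e-06). Changes in Fst and Smad6 were smaller, 1.07 and -0.79. Both calls were lost with the lot as a block on the 6 arrays alone (adjusted p of 0.065 and 0.099), and that of Smad6 also under quantile and median scaling (0.13 in both). The adjusted p of Fst, 0.0341, was also 0.066 to 0.16 without E14 replicate 1 or 2 or any E18 array, and that of Smad6, 0.0396, was 0.099 to 0.19 without E14 replicate 1 or 2 or any E18 array.

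In axon guidance 0 of 35 rose and 2 fell. Nrp1, a receptor for semaphorins and VEGF, read 2258, 2801 and 2465 at E14 and 832, 742 and 617 at E18 (log2 change -1.79 ± 0.28), and its second probe set fell as well. Epha7, an ephrin receptor, read 254, 159 and 304 at E14 and 62.6, 75.9 and 53.6 at E18, with 2 E18 arrays at the floor. Of 18 Notch pathway genes Notch3 alone was called, lower at E18 (log2 change -0.96 ± 0.23, and an adjusted p of 0.0357 that was 0.062 to 0.17 without any 1 of the 6 arrays). Notch1 read 3141, 3253 and 3519 at E14 and 2399.8, 2225 and 2186 at E18 without overlap but had an adjusted p of 0.535. Of 24 growth factor receptors Kit rose and Gfra3 fell. Kit, the receptor for stem cell factor, read 57.5, 86.7 and 72.9 at E14 and 325, 246 and 139 at E18, and its adjusted p of 0.0195 was 0.071 to 0.11 without E14 replicate 1 or 3 or E18 replicate 1 or 2. None of 12 Hippo pathway genes passed in limma, and 3 had an unadjusted p under 0.05.

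Growth genes of the insulin-like growth factor axis and imprinted genes held some of the steep falls. Of 12 genes of the axis 1 rose and 1 fell, and the median was -0.55 (-0.17, -0.70 and -0.37 within lots). Igf2bp1, an RNA-binding protein of embryonic tissue, fell from 736, 1004 and 1119 to 188, 285 and 176 (log2 change -2.15 ± 0.22, adjusted p = 1.22e-05). Igf2 read 3723, 3071 and 2792 at E14 and 1941, 2488 and 388 at E18, with E18 replicate 3 far under the others, and did not pass (adjusted p = 0.554). Igfbp3, a binding protein for these growth factors, rose from 397, 364 and 421 to 1158, 1065 and 1095, and its adjusted p of 0.0262 was 0.068 to 0.092 without any 1 of the 6 arrays. Of 18 imprinted genes Gatm rose, Mest and Peg3 fell, and 12 were lower, as were 4426 of the 7414 genes tested. Peg3, a zinc finger gene, read 3058, 3901 and 3089 at E14 and 2151, 1855 and 1412 at E18, with an adjusted p of 0.0156 that was 0.081 to 0.099 without E14 replicate 2 or E18 replicate 3 and 0.074 with the lot as a block on the 6 arrays alone.

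Genes of the extracellular matrix changed in both directions. Of 20 genes of the basal lamina, the sheet that each Schwann cell lays around itself, 2 rose and 1 fell, with a median of 0.39 (0.53, 0.30 and 0.32 within lots, and 0.15 with the Gapdh ratio as a covariate). Lama2, the alpha chain of laminin-211, rose from 1687, 2234 and 1925 to 7215, 5830.4 and 6278 (log2 change 1.73 ± 0.18, adjusted p = 2.32e-05). Its partner chains Lamb1 and Lamc1 read 3947, 3841 and 4021 at E14 and 7321, 6231 and 6474 at E18, and 3328, 3285 and 3935 at E14 and 4160.1, 5626 and 4985 at E18, with adjusted p of 0.145 and 0.15. Col18a1, the other collagen of the multiplexin family to which Col15a1 belongs, went the opposite way. It fell from 4636, 5713 and 4605 to 2242, 1823 and 1728 (log2 change -1.37 ± 0.20), and 3 of its 5 probe sets fell. Among 15 receptors for the basal lamina 1 rose and 0 fell. Rises numbered 0 when 1 of the 6 arrays was left out, 3 with the 6 arrays alone and 4 without the E16 and P0 arrays. Dag1, a receptor of this list, was not called (log2 change 0.74), but its other probe set was called higher (0.94). Itgb4, the integrin subunit that pairs with Itga6 as a laminin receptor, read 295, 306 and 297 at E14 and 995, 919 and 1307 at E18, and its adjusted p of 0.026 was 0.062 to 0.11 without any 1 of the 6 arrays. Itga6 read 817, 824 and 953 at E14 and 2225, 2100.0 and 1855 at E18 without overlap, with an adjusted p of 0.0672, and Itgb1 read 5038, 5849.8 and 4717 at E14 and 5685, 5704 and 5059 at E18.

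In the interstitial matrix 5 of 38 genes rose and 2 fell, against 1.03% and 2.05% of all genes. Col6a3, a chain of collagen VI, read 249, 154 and 144 at E14 and 900.4, 735 and 605 at E18. Col5a2, a chain of fibrillar collagen V, read 1559, 1809 and 1737 at E14 and 4626, 4235 and 4137 at E18 (log2 change 1.35 ± 0.15, adjusted p = 3.36e-05). Lox, which crosslinks collagen, read 147, 64.6 and 108 at E14 and 562, 446 and 468 at E18, though its second probe set changed by 0.18. The called probe set of Lox is of the shared-probe kind. P4ha1, a prolyl hydroxylase of collagen, read 263, 286 and 296 at E14 and 1045, 1046 and 1094 at E18, with close arrays within each age. Sparcl1, a matricellular protein, read 1021, 1243 and 1353 at E14 and 3364, 3571 and 3746 at E18, and its adjusted p of 0.029 was 0.064 to 0.14 without any 1 of the 6 arrays. The falls were in Vcan and in Loxl1, which was at the floor on all 3 E18 arrays. For Loxl1 the adjusted p of 0.0438 was 0.079 to 0.16 without any 1 of the 6 arrays, 0.075 with the lot as a block on the 6 arrays alone, and 0.06 and 0.059 under quantile and median scaling. The summed index of 19 markers of fibroblasts and perineurium was 13838 to 19890 at E14 and 20376 to 24728 at E18, and 6 of the markers (Cldn1, Fap, Foxd1, Pdgfrb, Prrx1 and Twist1) were at the floor on all 6 arrays. The sum includes the matrix genes Col1a1, Col1a2 and Col3a1. The part of such cells in the rises of matrix genes was not tested. With 1 probe set per gene, none of the 14 of these markers that were tested passed in limma, and 2 had an unadjusted p under 0.05, both higher. The median log2 change of the 14 was 0.03, with 7 higher and 7 lower. Col3a1, a fibrillar collagen on both lists, has 2 other probe sets, of which 1 rose (log2 change 1.20, adjusted p = 0.0349), and its adjusted p was 0.065 to 0.2 without E14 replicate 1 or 2 or any E18 array and 0.06 with the lot as a block on the 6 arrays alone. The called probe set of Col3a1 is of the shared-probe kind.

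Of 31 proteases and inhibitors 1 rose and 4 fell. Ctsl, the lysosomal cathepsin L, read 2356, 2016 and 2782 at E14 and 486, 516 and 611 at E18 (log2 change -2.14 ± 0.21, adjusted p = 8.23e-06). Prss12, the serine protease neurotrypsin, read 3426, 3682 and 3410.1 at E14 and 1049.8, 1209.8 and 1384 at E18. Ctss, a cathepsin of macrophages, read 787, 341 and 196 at E14 and 64.4, 47.7 and 16.3 at E18, with an adjusted p of 0.0181 that was 0.063 to 0.12 without E14 replicate 1 or any E18 array, and Ctsk changed by -0.71. Timp2, an inhibitor of metalloproteinases, rose in 1 of its 2 tested probe sets, from 999, 1080.4 and 1660.2 to 2599, 2369.6 and 2403. Its adjusted p of 0.0102 was 0.052 to 0.073 without E14 replicate 1 or 2 or E18 replicate 1, and 0.064 with the lot as a block on the 6 arrays alone. That of Ctsk, 0.0286, was 0.068 to 0.14 without any E14 array or E18 replicate 2 or 3, 0.13 with the same block, and 0.11 and 0.1 under quantile and median scaling.

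Several enzymes of cholesterol synthesis rose. Of 16 genes of synthesis and uptake 4 rose and 0 fell, 14 of the 16 were higher, and the median was 0.58 (0.61, 0.60 and 0.55 within lots). Hmgcs1, which makes the precursor of mevalonate, read 398, 414 and 617 at E14 and 2052, 1828 and 1958 at E18. Fdps, which joins isoprene units and whose probe set is of the shared-probe kind, read 365, 323 and 305 at E14 and 994, 759 and 1099.6 at E18. Sqle, which oxidises squalene on the way to the sterol ring, read 599, 599.5 and 701 at E14 and 2137, 1658 and 1719 at E18. Msmo1, which removes methyl groups from the early sterol, read 426, 258 and 437 at E14 and 1693, 1328 and 2170.3 at E18 (log2 change 2.22 ± 0.44). In all 4 the lowest E18 array was above the highest E14 array. The ages did not overlap in any of the 292 calls, or in 20.2% of all probe sets tested, so this adds nothing to the calls. Idi1, an isomerase of the same path, read 489, 316 and 622 at E14 and 1521, 1517 and 1636 at E18 and just missed the threshold (adjusted p = 0.0662). None of these 4 calls held through every removal of 1 array. Leaving out 1 of the 6 arrays also lowered the number of all calls, from 292 to between 173 and 222. The adjusted p of Hmgcs1, 0.0462, was 0.075 to 0.19 without any 1 of the 6 arrays, that of Sqle, 0.0188, was 0.053 to 0.089 without E14 replicate 1 or 2 or any E18 array, that of Fdps, 0.0203, was 0.056 to 0.097 without any E14 array or E18 replicate 1 or 3, and that of Msmo1, 0.00885, was 0.051 to 0.053 without E14 replicate 2 or E18 replicate 3. Rises numbered 0 to 2 when 1 of the 6 arrays was left out and 7 without the E16 and P0 arrays in the shared fit. With the Gapdh ratio as a covariate 4 rose and the median was 0.28. Scd1, which makes monounsaturated fatty acids, was the single rise among 27 genes of fatty acid and phospholipid synthesis, from 630.0, 547 and 667 to 1977, 1800.4 and 1967 (log2 change 1.64 ± 0.26, adjusted p = 0.00121). Fabp7 and Me1 fell in that list, and the adjusted p of Me1, 0.044, was 0.12 to 0.19 without E14 replicate 1 or 3 or any E18 array.

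Promoters are shown for both cholesterol genes that rose and have a window, because sterol genes share short regulatory motifs near their start sites. Each window runs from 250 bases before to 50 bases after the gene's start in RefSeq (build GRCm38.p6), 5′ to 3′ on the gene's strand. Capitals mark CCAAT, the letters bound by the factor NF-Y, and in Hmgcs1 also TCACNCCAC, a sterol element, on either strand. That of Hmgcs1 is chr13:119690101-119690400, plus strand, and that of Msmo1 is chr8:64733529-64733828, minus strand.
Hmgcs1: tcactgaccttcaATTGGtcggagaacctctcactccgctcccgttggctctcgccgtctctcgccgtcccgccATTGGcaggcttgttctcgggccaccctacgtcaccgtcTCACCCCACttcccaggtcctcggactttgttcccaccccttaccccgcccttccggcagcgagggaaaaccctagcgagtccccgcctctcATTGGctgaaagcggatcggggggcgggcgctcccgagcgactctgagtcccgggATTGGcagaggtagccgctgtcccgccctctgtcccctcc
Msmo1: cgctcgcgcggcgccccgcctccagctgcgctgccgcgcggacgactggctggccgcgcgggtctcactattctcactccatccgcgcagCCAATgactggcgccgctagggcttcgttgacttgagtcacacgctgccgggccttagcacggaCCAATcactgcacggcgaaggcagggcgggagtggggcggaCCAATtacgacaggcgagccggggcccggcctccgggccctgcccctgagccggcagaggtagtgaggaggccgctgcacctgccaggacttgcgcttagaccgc
CCAAT occurred 4 times in the Hmgcs1 window and 3 times in that of Msmo1. Of the 16 tested cholesterol genes 13 have a window, and all 13 held CCAAT at least once in a window, as did 37.4% of the 32851 windows of the table. TCACNCCAC was present in 1 of the 13, Hmgcs1, in 2 of 18 glycolysis genes with a window (Pkm and Aldoc), and in 1.24% of all windows. A match of letters is a description and not evidence of a bound site. The 3 motifs searched were chosen with the lists' values known.

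Some glycolysis genes rose. Of 19 genes 5 rose and 0 fell, with a median of 0.69 (0.59, 0.50 and 0.55 within lots). With the Gapdh ratio as a covariate 5 rose and the median was 0.29, and without E14 replicate 1 it was 0.41. Pdk1, a kinase that shuts pyruvate out of the mitochondrial oxidation path, read 233, 163 and 139 at E14 and 389.7, 458 and 768 at E18 (log2 change 1.57 ± 0.22, adjusted p = 0.000441, 0.053 with the lot as a block on the 6 arrays alone). Hk2, a hexokinase, was at the floor on 2 E14 arrays and read 179, 196 and 271 at E18. Tpi1, triosephosphate isomerase, read 1319, 1116 and 1041 at E14 and 2181, 2401 and 3424 at E18. Ldha, the lactate dehydrogenase subunit of lactate-forming cells, read 2831, 2639.8 and 2916 at E14 and 5241, 5822 and 5089 at E18 (log2 change 0.94 ± 0.17), and Aldoa, an aldolase whose probe set is of the shared-probe kind, 2935, 2927 and 2789 at E14 and 4573, 4458 and 5018 at E18. In Pdk1, Hk2 and Tpi1 E18 replicate 3 was the highest. The call of Ldha held without any 1 array, as did that of Pdk1. The adjusted p of Hk2, 0.0221, was 0.054 to 0.11 without any E14 array or E18 replicate 2 or 3, that of Tpi1, 0.0102, was 0.055 to 0.07 without E14 replicate 3 or E18 replicate 3, and that of Aldoa, 0.0156, was 0.052 to 0.082 without E14 replicate 1 or 3 or E18 replicate 1 or 3 and 0.11 with the lot as a block on the 6 arrays alone. Of 51 genes of oxidative phosphorylation none was called in limma, with a median of -0.09, and of 26 cytoplasmic ribosomal protein genes none was, with a median of 0.00. In each of these 2 lists 1 gene had an unadjusted p under 0.05.

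For glycolysis the motif ACGTG, the core that hypoxia-inducible factors bind, was searched in the same way, and its matches on either strand are in capitals. Of the 5 genes that rose, Ldha, Hk2 and Aldoa hold it, and Ldha and Hk2 are shown because a window of each held more than 1 match. Aldoa held 1 match in 2 of its 3 windows. Ldha has 2 windows, of which chr7:46845554-46845853, plus strand, held 5 matches, where CACGTG counts once on each strand. That of Hk2 is chr6:82774405-82774704, minus strand, with 2 matches.
Ldha: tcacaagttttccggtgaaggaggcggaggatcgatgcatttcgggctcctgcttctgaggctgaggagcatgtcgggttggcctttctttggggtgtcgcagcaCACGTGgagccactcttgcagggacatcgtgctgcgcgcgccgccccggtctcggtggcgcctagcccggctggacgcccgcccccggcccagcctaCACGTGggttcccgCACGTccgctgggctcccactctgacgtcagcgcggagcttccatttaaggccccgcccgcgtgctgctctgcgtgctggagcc
Hk2: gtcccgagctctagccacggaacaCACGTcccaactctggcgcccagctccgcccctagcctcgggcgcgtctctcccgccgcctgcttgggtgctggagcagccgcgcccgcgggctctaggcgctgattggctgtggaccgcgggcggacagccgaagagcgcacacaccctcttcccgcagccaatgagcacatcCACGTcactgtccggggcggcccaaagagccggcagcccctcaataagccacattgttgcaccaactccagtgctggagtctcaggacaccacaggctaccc
Of 18 glycolysis genes with a window 10 held ACGTG, against 19.6% of all windows and 3 of the 13 cholesterol genes. CCAAT was in 9 of the 18 glycolysis genes. Some of these genes have several windows, and a gene counted when any held the letters, while the share of all windows is per window. Per window, ACGTG was in 12 of 28 glycolysis windows and CCAAT in 13 of 15 cholesterol windows. ACGTG was in no window of Pdk1 or Tpi1, which rose too.

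Genes of cell division showed little that passed. Of 42 DNA replication genes and 40 mitosis genes none was called by limma, and the medians were -0.24 and -0.20. At an unadjusted p under 0.05, 7 and 3 were lower and none was higher, against 601 lower and 296 higher of all 7414 genes. Within lots 1, 2 and 3 the median of the mitosis genes was 0.03, 0.10 and -0.84, so the lower median came from lot 3 alone. Pcna, the sliding clamp of replication, read 2864, 2939 and 3101 at E14 and 3221, 3144 and 3096 at E18, and Cdc20, an activator of the anaphase ligase, 2203, 1984 and 2074 at E14 and 2155, 2243 and 1933 at E18. Cdk2, a kinase of S phase entry, was lower, at 838, 834 and 1042 at E14 and 389.9, 369.8 and 266 at E18, with an adjusted p of 0.0161 that was 0.05 to 0.094 without E14 replicate 1 or 3 or E18 replicate 3. The other probe set of Cdk2 changed by -0.54 and was not called. Gas1 fell and Cdkn2d, an inhibitor of cyclin D kinases, rose. The adjusted p of Gas1, 0.0187, was 0.06 to 0.1 without E14 replicate 1 or 3 or E18 replicate 1 or 3, and that of Cdkn2d, 0.0349, was 0.1 to 0.18 without E14 replicate 1 or 2 or E18 replicate 1 or 2. Both were lost with the lot as a block on the 6 arrays alone (0.067 and 0.14). Of 32 chromatin genes 28 were lower and 2 fell. Hmga2, an architectural DNA-binding protein of embryonic cells, read 2585, 3043 and 3202 at E14 and 837, 790.3 and 364 at E18 (log2 change -2.24 ± 0.42, adjusted p = 0.00487), and Cbx5, heterochromatin protein 1 alpha, changed by -0.92. The call of Cbx5 was lost under quantile and median scaling, its adjusted p was 0.071 to 0.14 without E14 replicate 1 or 3 or any E18 array, and 0.054 with that block. The other probe set of Cbx5 changed by -0.14 and was not called.

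**Figure D4:**
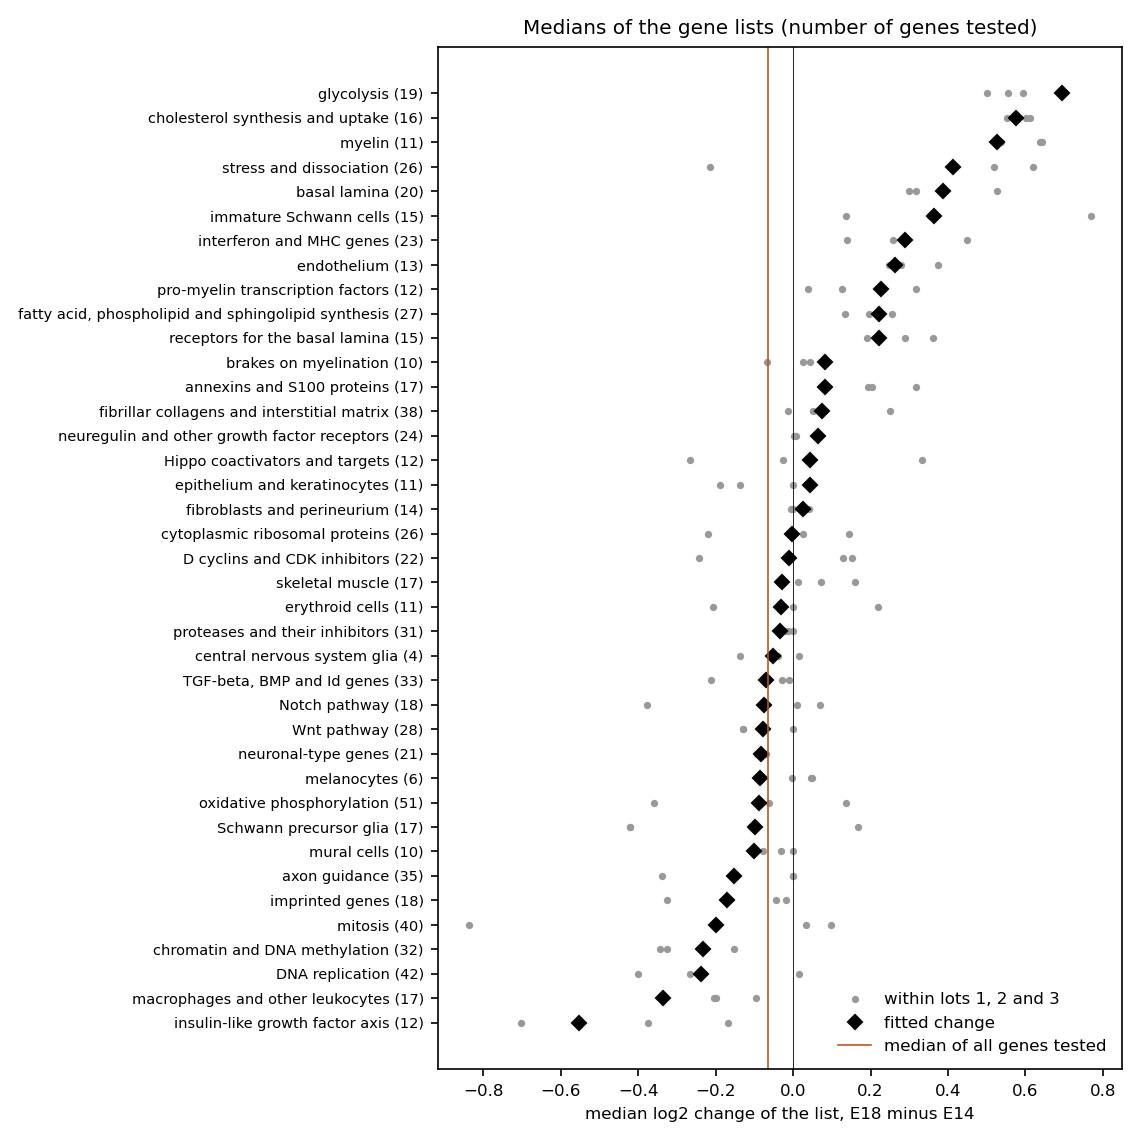
Median log2 change from E14 to E18 of each gene list (diamonds, fitted change with 1 probe set per gene) and the medians within lots 1, 2 and 3 (grey circles), with the number of tested genes in brackets and the median of all genes tested as an orange line. Glycolysis (0.69), cholesterol synthesis (0.58) and myelin (0.53) stand highest with all 3 lots above 0, while the stress and mitosis lists have lot 3 apart from lots 1 and 2.

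Lists of other genes and cells gave few calls. Of 17 annexins and S100 proteins S100a6 and Anxa1 rose. Of 23 interferon and MHC genes Gbp3 and H2-D1 rose, by 1.01 and 0.83. Of the 3 probe sets of H2-D1 1 was called, and it is of the shared-probe kind. The adjusted p of Gbp3, 0.0338, was 0.071 to 0.11 without any 1 of the 6 arrays. That of H2-D1, 0.0437, was 0.056 with the lot as a block and 0.073 to 0.18 without any 1 of the 6 arrays. Of 26 genes of stress and dissociation, which respond to tissue handling, none was called in limma, but 21 were higher and 5 had an unadjusted p under 0.05, with a median of 0.41 (0.62, 0.52 and -0.22 within lots). Of 21 neuronal-type genes Cadps, Gap43 and Rtn1 fell, and the adjusted p of Rtn1, 0.0158, was 0.078 to 0.089 without E14 replicate 1 or 3 or E18 replicate 3. Gap43 was also among the precursor glia genes. The summed index of 28 such genes was 6176 to 6590.1 at E14 and 5044 to 5818 at E18, with Elavl4, Isl1, Map2, Scg2, Snap25, Syt1 and Syt4 at the floor on all 6 arrays. Among 4 genes of central glia Gja1, connexin 43, fell in both probe sets, and Sox1 rose from the floor to 105, 127 and 192. The Gja1 probe set of the higher level, of the shared-probe kind, went from 3694, 3752 and 3793 to 1027, 988 and 1522. The call of Sox1 (0.0139) was 0.051 to 0.081 without E14 replicate 1 or 3 or E18 replicate 3, and 0.07 with the lot as a block on the 6 arrays alone. Emcn, an endothelial sialomucin, was the 1 call among 13 endothelial genes and rose from the floor to 124, 156 and 163, with an adjusted p of 0.0142 that was 0.052 to 0.073 without E14 replicate 1 or 3 or E18 replicate 2 or 3. The other tested probe set of Emcn changed by 0.17 and was not called. None of the tested genes of skeletal muscle (17) or of epithelium (11) was called in limma, and 0 and 1 had an unadjusted p under 0.05.

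The interval from E14 to E18 was set against the interval before it, E12 to E14, with a contrast of the 2 changes in the same fit. The later interval spans more days than the earlier one, and the changes were not scaled to its length. A gene that changes at a steady rate therefore also shows a difference. The E14 arrays enter both changes. The changes differed in 88 probe sets (0.845%), 17 with the higher change in the later interval (0.163%) and 71 with the lower one (0.682%). Ctnnd2, Col26a1 and Corin first rose and then fell (log2 changes before E14 of 1.70, 2.35 and 2.48). Ctnnd2 was 156, 238 and 231 at E12, 706, 531 and 777 at E14 and at the floor at E18 (difference of log2 changes -4.97 ± 0.34, adjusted p = 8.24e-07). Col26a1, an extracellular matrix collagen, was 81.6, 93.9 and 119, then 462, 594 and 441, then 92.3, 99.6 and 109. Corin, a serine protease of the cell surface, was 85.0, 19.5 and 81.0, then 559.6, 324 and 449.7, then 102, 101 and 117. These 3 genes were thus high at E14 against both neighbours. Vcan read 4907, 4441 and 5852 at E12, and its log2 change of -0.55 to E14 stands against -5.64 after it (difference -5.09 ± 0.62, adjusted p = 0.00027). Col1a1, a chain of collagen I, rose from 75.3, 85.6 and 40.9 at E12 to 2716, 4296 and 4239 at E14 and read 6398, 6505 and 5248 at E18, where the later change did not pass (adjusted p = 0.0914).

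In the opposite direction Pdk1 and Reep1 read lower at E14 than at E12 and rose from E14 to E18. Pdk1 was 366, 355 and 314 at E12, 233, 163 and 139 at E14 and 389.7, 458 and 768 at E18 (difference 2.55 ± 0.39, adjusted p = 0.00217). It was again low at P0, at 142, 137 and 123. Reep1, a shaping protein of the endoplasmic reticulum, was 405, 428 and 492, then 221, 142 and 226, then 643, 635 and 562 (difference 2.87 ± 0.53, adjusted p = 0.011). The adjusted p for Reep1 was 0.12 without E14 replicate 2, and that of Pdk1 0.0932 with the lot as a block on the arrays of the 3 stages alone. Art3, Srgap2 and Anxa1 had log2 changes of 0.46, -0.14 and -0.40 before E14 and rose after it (differences 2.50 ± 0.51, 2.47 ± 0.46 and 3.59 ± 0.78, adjusted p = 0.0235, 0.011 and 0.0358). Those 3 differences did not hold through every removal of 1 array or, for Srgap2 and Anxa1, at every floor. The adjusted p was 0.056 to 0.15 for Art3 without any one E14 array or without E18 replicate 2 or 3, and 0.061 to 0.11 for Srgap2 without E14 replicate 1 or 2. For Anxa1 it was 0.054 to 0.17 without any one array of E14 or E18 or without E12 replicate 1 or 2. With the floor at the 40th percentile it was 0.33 for Anxa1 and 0.064 for Srgap2, and with the 10th 0.11 for Srgap2. Under quantile and median scaling that of Anxa1 was 0.082 and 0.063, and with no filter 0.051.

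The 4 arrays of E16 and the 3 of P0 were then read beside those of E14 and E18. For 12 of the 15 largest rises and 12 of the 15 largest falls the mean log2 level at E16 was nearer to E18 than to E14. The exceptions were Cxcl10, Tnfrsf21 and Emp2 among the rises and Actn1, Tcf4 and Mest among the falls. At P0 the mean of all 30 was nearer to E18 than to E14. These 30 genes were chosen by their E14 and E18 values, and the same positions were not counted over all genes tested. Mbp read 191, 218 and 163 at E12, 1962, 2174, 2926 and 3940.3 at E16 and 3206, 4747 and 5169.9 at P0. Lama2 read 101, 90.3 and 125 at E12 and 4408, 4835, 6716 and 6265 at E16, and Fabp7 read 4819, 4270.2 and 5376 at E12 and 1460.2, 547, 937 and 1137 at E16. Dkk2 and Crabp2 were at the floor on all 4 E16 arrays already. Among glycolysis genes, Ldha read 2543, 3460.0 and 4172 at P0 and Tpi1 890.1, 1154 and 1723, with the lowest P0 array in each under the highest E14 array. Aldoa read 3728, 4929 and 3802 at P0, all above its E14 arrays.

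**Figure D5:**
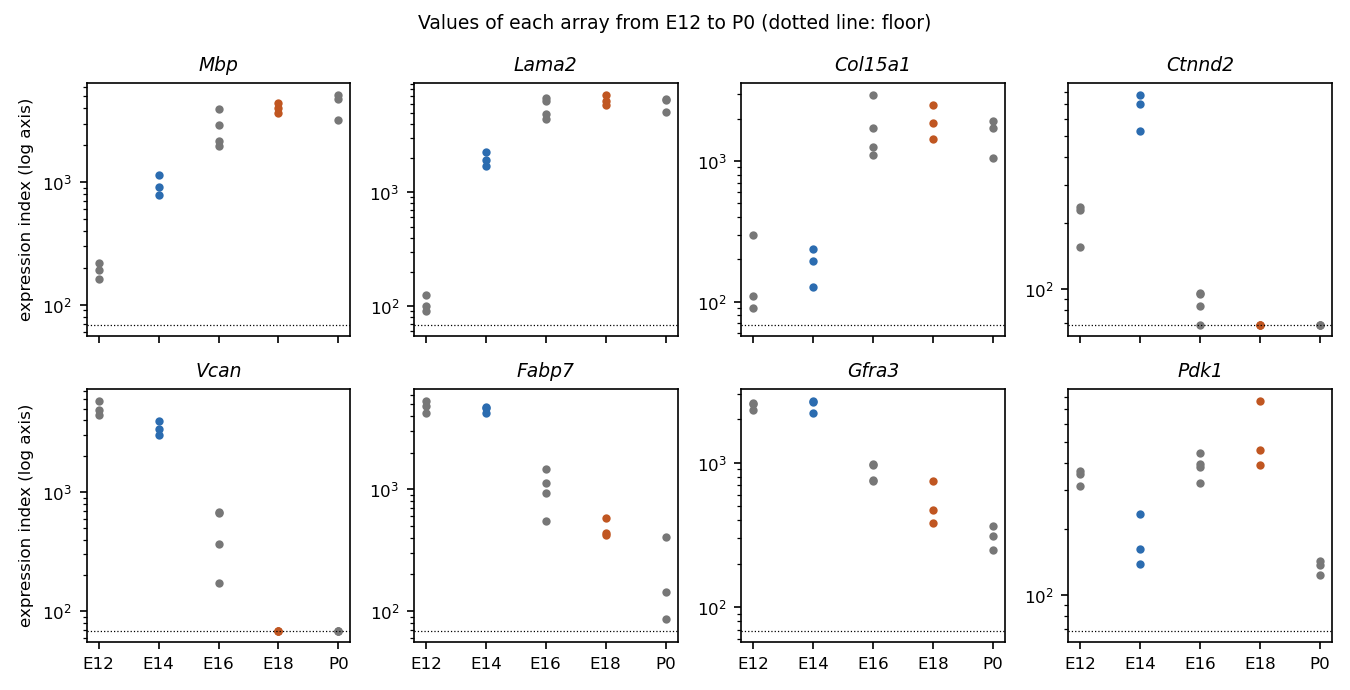
Expression index (log axis, values under the floor drawn at the floor, dotted line) of every array at E12, E14 (blue), E16, E18 (orange) and P0 for Mbp, Lama2, Col15a1, Ctnnd2, Vcan, Fabp7, Gfra3 and Pdk1. Mbp and Lama2 were already higher at E14 than at E12, Col15a1 was not, Ctnnd2 peaked at E14, and Pdk1 was high at E18 but not at P0.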

How the data were processed

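Sciatic nerve cells, sorted for a green reporter, were measured on Affymetrix arrays, with 3 arrays at E14 and 3 at E18. Per the labels, RNA went through 2 rounds of in vitro transcription, and the authors normalized the arrays with the smoothing spline of dChip and computed a model-based index from probe sensitivities of 18 arrays, of 19 analysed here. The deposited values are intensities on a linear scale. No version of dChip is named.

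The 66 controls were dropped. Of the other probe sets 10833 carried 1 gene symbol, 396 several and 1193 none, and only those with 1 were named. Values were floored at their 25th percentile (68.5), log2 was taken, and probe sets above the floor on 3 or more arrays were fitted in limma 3.58.1 (R 4.3.3), with a mean per stage over 19 arrays, 13 residual degrees of freedom and 2-sided Benjamini-Hochberg p-values. Folds come from that fit on floored log2 values. They are lower bounds, written "at least", where an array of the lower age was at the floor. Errors beside log2 changes are standard errors. The number of arrays limits the precision. On simulated data of this design 55% of log2 changes of 1 and 95% of log2 changes of 2 were recovered, with 8 false calls among 10072. These rates are given by size of change only, and recovery near the floor or with differences between lots was not tested. Of the calls, 54 falls and 21 rises had at least 1 array of the lower age at the floor.

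The labels give each array a lot batch, and E14 and E18 each have lots 1, 2 and 3, which pair the arrays. The deviations of same-lot arrays from their stage means had correlations of -0.05, -0.01 and -0.16. The block was an alternative.

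Members and lists were chosen with earlier results of these data known. Named are the 15 largest rises and falls among called, non-overlapping probe sets, up to 5 called members of each of 39 lists (or up to 3 of the highest level where fewer than 2 passed) and up to 5 in each direction of the interval contrast. A list uses each gene's probe set of the highest mean. Other genes, such as Cryab, Cdh2, Idi1, Igf2, Lamb1 and Lamc1, were named after their values were seen.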

Additional observations from a re-analysis of the deposited data

How the results depend on the processing

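Alternatives were a floor at the 10th or 40th percentile, no filter, quantile or median scaling, the 6 arrays alone, a fit without E16 and P0, the lot as a replicate block, the Gapdh ratio as a covariate, array weights, an intensity trend, and each E14 or E18 array left out in turn. For the interval contrast each E12 array was left out as well. No array of E9.5, E16 or P0 was left out singly. The count of 292 calls (95 higher, 197 lower) became 468 (193 higher) with the stages compared alone, 643 (249 and 394) without E16 and P0, and 2026 (666 and 1360) with array weights. Rises numbered 165 after quantile normalization and 162 after median scaling. Falls numbered 307 with the Gapdh covariate. Leaving out 1 array gave 173 to 222 calls, 48 to 60 rises and 122 to 166 falls over the E14 and E18 arrays. With the replicate block 328 were called over 19 arrays and 289 on the 6 arrays. The cause of these shifts was not tested. A fit with fewer arrays has fewer degrees of freedom, and such fits gave more calls in some cases and fewer in others.

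The interval contrast went from 88 calls to 152 with its stages alone, 205 without E16 and P0, 148 with the covariate, 445 with weights and 44 to 85 without 1 array.

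Of 92 called probe sets of 91 genes named here 53 kept their call under every alternative run, 39 lost it under at least 1 and 0 reversed. Leaving out 1 of the E14 or E18 arrays ended 37 calls. The replicate block over 19 arrays ended 2, those of Cxcl10 and H2-D1, and on the 6 arrays alone it ended 15. Of 55 probe sets named by the rule and not called it added Itga6. Quantile and median scaling ended the calls of Smad6, Ctsk, Cbx5 and Loxl1. The Gapdh covariate ended those of Cxcl10, Pmp22, Fst, Smad6, Cdkn2d, H2-D1 and Col3a1. Kit, Hk2, Efhd1, Tmem45a, Gbp3, Ctss, Emcn and Fst lie near the floor and lost their calls with the floor at the 40th percentile. Values near the floor limit what a fold can show.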
